A study of Mus musculus with 12 samples.

Results

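The genes described here are those of the Schwann cell myelin sheath and of the transcription factors that switch myelination on. The probes were found by their gene name in the array files. Of 6 names searched (Pmp22, Mbp, Mag, Egr2, Pou3f1 and Sox10), 5 had probes and Sox10 had none, so Sox10 was not analysed here. The 5 genes carried 9 of the 40726 autosomal probes and are 5 of 19959 autosomal gene names. Pmp22 had 3 probes, Mbp and Mag had 2 each, and Egr2 and Pou3f1 had 1 each.

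DNA copy number was compared by array comparative genomic hybridisation, in which tumour DNA and a second DNA are labelled with different dyes and compete for the same oligonucleotide probes. The tumour DNA, in the Cy5 channel, came from cells grown out of malignant peripheral nerve sheath tumours (MPNST) of mice with the genotype given as P0-GGFβ3 transgenic. By the strain label, tumours 231 Trig, A18, A202, A292, A382, A390 and A394 are C57BL/6J x SJL/J (7 tumours, called mixed here), and B76, B86, B91 and B96 are C57BL/6J (4 tumours). The reference DNA, in the Cy3 channel of every array, came from wild-type non-neoplastic Schwann cells of C57BL/6J mice. A382 was hybridised at passages 9 and 8, which were averaged, so that 12 arrays gave 11 tumours. The titles give passages of 5 to 13 for all tumours but 231 Trig, and the growth notes name a lower limit than the highest of these. Tumour cells were passaged without forskolin and NRG1β, whereas Schwann cells were kept in both. Dyes were not swapped, and every tumour but not the reference carried the transgene, so dye, transgene and tumour effects cannot be told apart. The same kind of reference DNA was on every array, so a copy change in it would enter the ratio of every tumour. Its own spread is not in the tests, and the ratio alone cannot tell such a change from a tumour effect. Nothing states that the tumours came from separate mice, and p-values measure only the spread between these samples.

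Myelinating Schwann cells wrap axons in compact membrane that is held together by a small set of abundant proteins. Pmp22 encodes a membrane protein of compact myelin whose gene dosage matters in humans, where duplication or deletion of PMP22 underlies inherited neuropathies. Pou3f1 marks the promyelinating stage and acts with Sox10 to induce Egr2, which in turn drives the myelin genes.

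Pmp22 probes 1 and 2 and both Mag probes are printed first, since Pmp22 and Mag passed as higher than the reference and each gene's value rests on a few short stretches. The other probes are given by position only. Positions are those listed in the files, in build mm9. The files give no strand, and exons and introns are not named because no mm9 annotation was used here. Pmp22 probes 1 and 2 lay at chr11:62953643-62953702 and chr11:62957450-62957509, and the Mag probes lay at chr7:31692040-31692087 and chr7:31699013-31699062.
Pmp22 probe 1: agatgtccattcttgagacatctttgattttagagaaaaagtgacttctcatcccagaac
Pmp22 probe 2: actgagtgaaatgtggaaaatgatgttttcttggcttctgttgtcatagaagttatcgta
Mag probe 1: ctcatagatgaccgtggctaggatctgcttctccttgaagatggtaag
Mag probe 2: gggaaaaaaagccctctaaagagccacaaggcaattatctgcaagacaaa

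The other probes lay at chr11:62972050-62972109 (Pmp22 probe 3), chr18:82724734-82724793 and chr18:82754769-82754828 (Mbp), chr10:67004738-67004796 (Egr2) and chr4:124337609-124337668 (Pou3f1). The Mag probes were 48 and 50 bases long with a GC content of 47.9% and 42.0%, against a median of 36.7% over autosomal probes. The GC content of the Pmp22 probes was 36.7%, 35.0% and 36.7%. All 9 probes were well above background on all 12 arrays. One spot, Mbp probe 2 in A202, was marked as an outlier and set to missing, so the Mbp value of A202 rests on probe 1 alone.

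Values are log2 ratios of tumour over reference, centred on the autosomal median of each array, and a gene is the mean of its probes. Each gene was also set against its neighbours, the median of the 10 nearest probes with another name on each side. The mean over tumours was tested against 0 with limma and adjusted by Benjamini-Hochberg over all autosomal genes. A gene passed at an adjusted p under 0.05 and an absolute mean of at least 0.2. The arrays hold DNA from whole cultures, so the share of cells with a change and the copies per changed cell cannot be told apart.

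Against the reference, Pmp22 and Mag passed as higher and Pou3f1 passed as lower, while Egr2 and Mbp did not pass. This is 2 higher and 1 lower of 5, where 18% of all genes passed as higher, 15.5% as lower and 33.5% in either direction. Pmp22, Mag and Pou3f1 had 1 sign in all 11 tumours, as had 25.3% of all genes. The median ratio of the 5 genes was 0.11 and that of all genes -0.01. In order of the mean, Pmp22 lay above Mag in 11 of 11 tumours and Mbp lay above Pou3f1 in 11 of 11. Mag exceeded Egr2 by 0.13 ± 0.18 and Egr2 exceeded Mbp by 0.05 ± 0.17 (SD, n = 11 each), differences smaller than their spread.

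**Figure D1:**
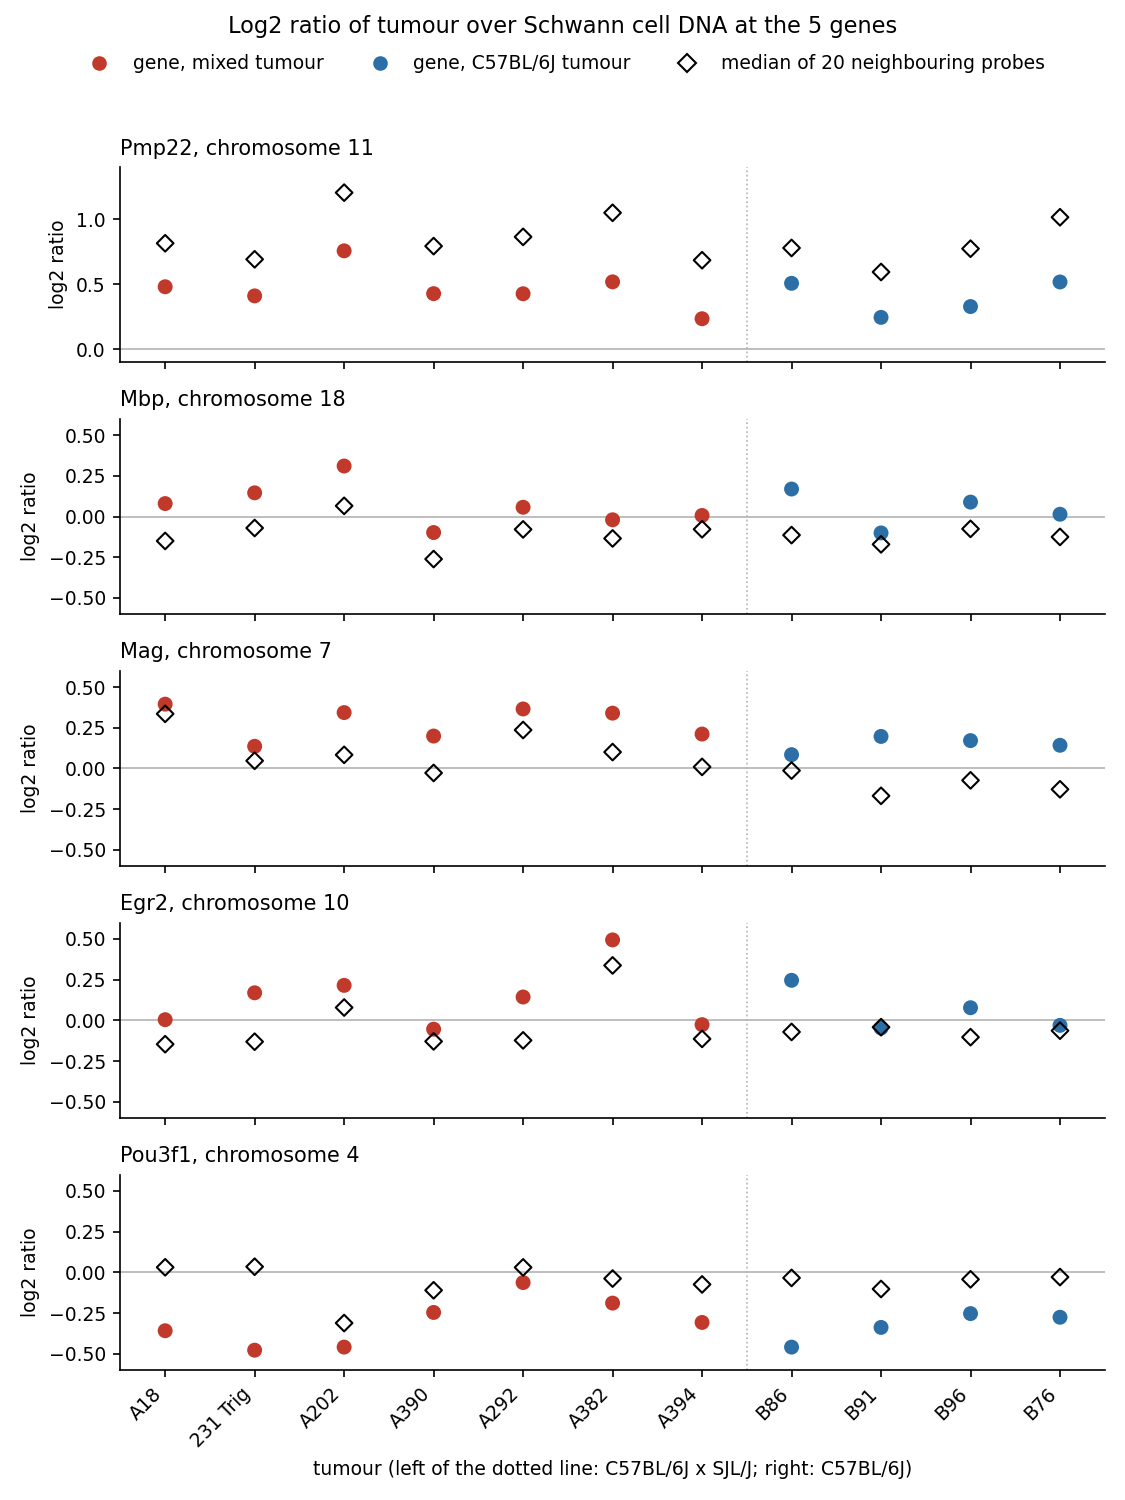
Each panel plots 1 gene. The vertical axis is the log2 ratio of tumour over reference DNA, and the horizontal axis lists the 7 mixed tumours and then the 4 C57BL/6J tumours. Filled points are the gene and open diamonds the median of its 20 neighbouring probes. Pmp22 lies above 0 and below its neighbours in all 11 tumours, and Pou3f1 lies below both.

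The Pmp22 ratio of tumour over reference DNA was above 0 but lower than that of the DNA around it. In the mixed tumours its log2 ratio was 0.24 at the lowest (A394), 0.43 at the median and 0.76 at the highest (A202). In the C57BL/6J tumours it was 0.51 in B86, 0.25 in B91, 0.33 in B96 and 0.52 in B76. All 11 tumours were above 0, and the backgrounds overlapped. The mean was 0.44 ± 0.15 (SD, n = 11), with an adjusted p of 9.07e-07 by limma. Pmp22 lies on chromosome 11, where 95.8% of 1555 genes passed as higher, so its call is shared by nearly the whole chromosome.

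Set against its stretch of chromosome 11, Pmp22 was lower. The neighbour median was 0.59 in B91 and 1.20 in A202, the extremes of the 11 tumours. Pmp22 minus neighbours was -0.53 at the lowest (A382), -0.44 at the median and -0.27 at the highest (B86), below 0 in 11 of 11 tumours. The mean was -0.40 with a 95% confidence interval of -0.46 to -0.34 and an adjusted p of 2.57e-08 by limma. Of all genes, 12.9% passed as lower than their neighbours, 9.96% as higher and 22.8% in either direction, and 35.4% had 1 sign in all 11 tumours. On chromosome 11 alone 21.5% passed as lower. On that chromosome 108 of 1555 genes had a lower difference. Against the chromosome median, which averaged 0.69 ± 0.19 (SD, n = 11), Pmp22 was lower by less, at -0.24 (adjusted p = 8.85e-07, limma), where 13% of all genes passed as lower. That call rests on probe 3, which passed at -0.48, while probe 1 at -0.18 and probe 2 at -0.07 (adjusted p = 0.0524, limma) did not. With the median of its probes in place of the mean, Pmp22 was at -0.195 and did not reach the size minimum.

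The 3 Pmp22 probes differed among themselves. Probe 1 averaged 0.51 ± 0.23, probe 2 averaged 0.61 ± 0.15 and probe 3 averaged 0.21 ± 0.11 (SD, n = 11 each). Probe 3, which starts 14.5 kb after the end of probe 2, was below probe 2 in 11 of 11 tumours. The range of the probe means was 0.41, and 22.3% of the 1928 genes with 3 probes had a larger one. Minus neighbours, each of the probes passed as lower, at -0.34, -0.23 and -0.64 in order of position, where 15.2% of all probes passed as lower. None of the 20 neighbouring probes had a mean ratio below that of probe 3, and 18 of 20 had one above that of probe 2. The nearest probe of all, named only by its position, starts at -19.3 kb from the start of the first Pmp22 probe and averaged 0.83 ± 0.18. The nearest probes with the name of another gene were in Tekt3, after a gap of 45.2 kb on the left, at 0.93 ± 0.33, and in AK021026, after a gap of 24.3 kb on the right, at 0.84 ± 0.21 (SD, n = 11 each).

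With the channels apart, the mean of the Pmp22 probes and the neighbour median differed more in the reference channel than in the tumour channel, and the probes differed widely. Each channel was taken as log2 signal minus its autosomal median, adjusted for probe GC content. Probes differ in brightness within a channel, so these levels are a description with no test. In the tumour channel Pmp22 averaged 0.36 ± 0.12 and its neighbours 0.12 ± 0.20 (SD, n = 12 arrays). In the reference channel Pmp22 averaged -0.03 ± 0.07 and its neighbours -0.69 ± 0.09. The chromosome 11 median was 0.16 ± 0.17 in the tumour channel and -0.53 ± 0.04 in the reference channel. For the chromosomes of Mbp, Mag, Egr2 and Pou3f1 the reference channel median was 0.09, 0.09, 0.03 and 0.01. In the tumour channel these medians were -0.10, 0.10, -0.03 and -0.10. The part of the reference DNA in the higher ratios of chromosome 11 genes was not tested. Minus neighbours, probes 1, 2 and 3 averaged -0.0008, -0.14 and 0.88 in the tumour channel, and 0.35, 0.11 and 1.54 in the reference channel. The Pmp22 mean of 0.25 ± 0.10 minus neighbours in the tumour channel thus rests mostly on probe 3. Probe 1 had an SD of 0.27 there, with 0.24 to 0.53 in A18, 231 Trig, B86 and A202 (slide 1). On the other arrays it was -0.27 to -0.09. Its mean was 0.09 without GC adjustment and 0.13 from background-subtracted signal. In the reference channel the Pmp22 mean was 0.67 ± 0.04 minus neighbours, and all 3 probes averaged above their neighbours. That mean too rests mostly on probe 3. Probe 1 was 0.58 to 0.68 there on slide 1 and 0.16 to 0.28 on the other arrays. Probe 2 was slightly below its neighbours in 231 Trig (-0.04) and A202 (-0.005).

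Probe 3, which had the lowest ratio, was bright in both channels, at 1.00 ± 0.18 in the tumour channel and 0.85 ± 0.18 in the reference channel (SD, n = 12 arrays). Only 7.7% of autosomal probes were brighter in the tumour channel and 12.5% in the reference channel. The part of this brightness in the low ratio was not tested.

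**Figure D2:**
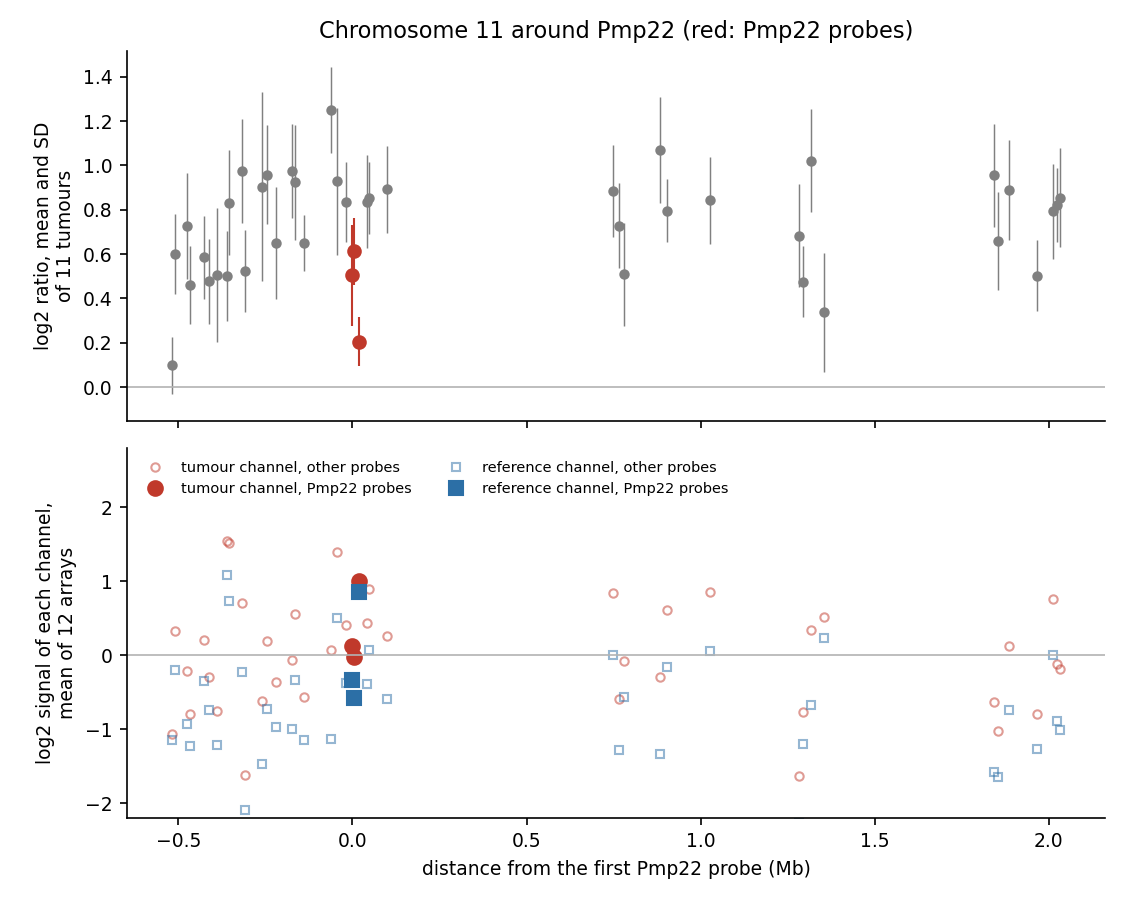
The horizontal axis is the distance in Mb from the first Pmp22 probe. The upper panel plots the mean log2 ratio of each probe with its SD over 11 tumours. The lower panel plots the mean log2 signal of the tumour channel (circles) and of the reference channel (squares) over 12 arrays, relative to the autosomal median. The Pmp22 probes have ratios of 0.51, 0.61 and 0.21 and the third is the brightest of them in both channels.

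Mbp encodes myelin basic protein, which compacts the cytoplasmic faces of the myelin membrane. In the mixed tumours its ratio was -0.10 at the lowest (A390), 0.06 at the median and 0.31 at the highest (A202). In the C57BL/6J tumours it was 0.17 in B86, -0.10 in B91, 0.09 in B96 and 0.01 in B76. The groups overlapped and both held values on either side of 0. The mean of 0.06 ± 0.12 (SD, n = 11) did not pass (adjusted p = 0.244, limma), and without slide 1 it was -0.01.

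Mbp lay above its neighbours on chromosome 18 in 11 of 11 tumours, by 0.07 in B91 and 0.28 in B86 at the extremes. The mean difference was 0.17 (95% confidence interval 0.12 to 0.22, adjusted p = 1.74e-05 by limma), under the size minimum. Probe 2 alone passed, at 0.21 ± 0.05 (SD, n = 10), where 13.7% of all probes passed as higher. In Galr1 and BC036962, the nearest probes with the name of another gene averaged 0.01 ± 0.10 and -0.25 ± 0.17 (SD, n = 11 each). The 20 neighbours of Mbp spanned 3311.7 kb, and those of Mag 235.6 kb. Against the chromosome median Mbp passed, at 0.20 (adjusted p = 9.95e-06, limma), where 9.96% of genes passed as higher. That value lost its call in 8 of 26 alternatives. With slide as a block it was 0.199 and just under the minimum. Without A18, B86 or A202, each on slide 1, it also fell under the minimum, with 0.19 as the lowest, and without the whole of slide 1 it was 0.16. The call was also lost in the C57BL/6J tumours alone (0.198), with outlier spots kept and with a size minimum of 0.3.

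Mag encodes myelin-associated glycoprotein, an adhesion protein of the myelin membrane next to the axon. In the mixed tumours its ratio was 0.14 at the lowest (231 Trig), 0.34 at the median and 0.40 at the highest (A18). Among C57BL/6J tumours it was 0.08 in B86, 0.20 in B91, 0.17 in B96 and 0.14 in B76. All tumours were above 0 and the groups overlapped. The mean of 0.24 ± 0.11 (SD, n = 11) passed with an adjusted p of 0.000134 by limma. In the C57BL/6J tumours alone the mean was 0.15 and did not reach the size minimum.

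Mag lay above its neighbours on chromosome 7 in 11 of 11 tumours, with 0.06 in A18 as the lowest and 0.36 in B91 as the highest. The mean difference of 0.198 (95% confidence interval 0.14 to 0.26, adjusted p = 2.68e-05 by limma) was just under the size minimum. It passed in 11 of 30 alternatives, among them slide as a block at 0.20. These include no size minimum and one of 0.1, which change the threshold and not the value. Over all alternatives the difference ranged over 0.14 to 0.24. Of its probes, probe 2 passed at 0.27 ± 0.14 and probe 1 did not at 0.12 ± 0.08 (SD, n = 11 each). The ratio of probe 2 was higher than that of probe 1 in 10 of 11 tumours, by 0.15 ± 0.12, with a gap of 6.9 kb between them. Against the chromosome median Mag passed at 0.21 (adjusted p = 1.81e-06, limma), but without A202 or B91 it fell under the minimum, with 0.197 as the lowest. The range between its probes is close to the median of 0.161 over genes with 2 probes. The nearest probes with the name of another gene, in Cd22 and Hamp2, were also above 0, at 0.36 ± 0.17 and 0.31 ± 0.13 (SD, n = 11 each).

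Egr2 encodes the zinc finger factor that drives the myelin programme, and it had 1 probe. In the mixed tumours its ratio was -0.05 at the lowest (A390), 0.14 at the median and 0.49 at the highest (A382). Among C57BL/6J tumours it was 0.25 in B86, -0.05 in B91, 0.08 in B96 and -0.03 in B76. A382 stood highest and the groups overlapped. The mean of 0.11 ± 0.17 (SD, n = 11) did not pass (adjusted p = 0.0822, limma). The high value of A382 was seen at both passages, 0.51 at passage 9 and 0.48 at passage 8, and its neighbours on chromosome 10 had a median of 0.34 in that tumour. Minus neighbours Egr2 averaged 0.15 (95% confidence interval 0.09 to 0.22, adjusted p = 0.000533 by limma), above 0 in 10 of 11 tumours and under the size minimum. Against the chromosome median it averaged 0.15 and did not pass either. In AK139516 and Ado, the nearest probes with the name of another gene averaged -0.08 ± 0.29 and -0.11 ± 0.21 (SD, n = 11 each).

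Pou3f1 encodes the POU domain factor of promyelinating Schwann cells (also called Oct6) and had 1 probe. In the mixed tumours its ratio was -0.48 at the lowest (231 Trig), -0.31 at the median and -0.06 at the highest (A292). In the C57BL/6J tumours it was -0.46 in B86, -0.34 in B91, -0.25 in B96 and -0.28 in B76. All 11 tumours were below 0 and the groups overlapped. The mean of -0.31 ± 0.13 (SD, n = 11) passed as lower, with an adjusted p of 1.78e-05 by limma.

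Pou3f1 was also lower than its neighbours on chromosome 4, whose median averaged -0.06 ± 0.10 (SD, n = 11). The difference was -0.51 at the lowest (231 Trig), -0.23 at the median and -0.09 at the highest (A292), below 0 in 11 of 11 tumours. The mean was -0.25 (95% confidence interval -0.33 to -0.17, adjusted p = 4.04e-05 by limma). Without slide 1 it was -0.19 and no longer reached the size minimum. Against the chromosome median Pou3f1 passed at -0.23 (adjusted p = 4.93e-05, limma), and without slide 1 that was -0.18. Of genes with a single probe, 29.2% passed against their neighbours in either direction, where 22.8% of all genes did. In A382 Pou3f1 minus neighbours was -0.25 at passage 9 and -0.08 at passage 8, and only the former reached the size minimum. The arrays of these passages were on different slides, so passage and slide cannot be told apart. Over all genes the difference between these passages, minus neighbours, had an SD of 0.083. Those genes include many with several probes, whereas Pou3f1 has 1. The cause of the gap at Pou3f1 was not tested. The nearest probes with the name of another gene, in AK013916 and AK008801, averaged -0.14 ± 0.12 and 0.16 ± 0.22 (SD, n = 11 each).

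**Figure D3:**
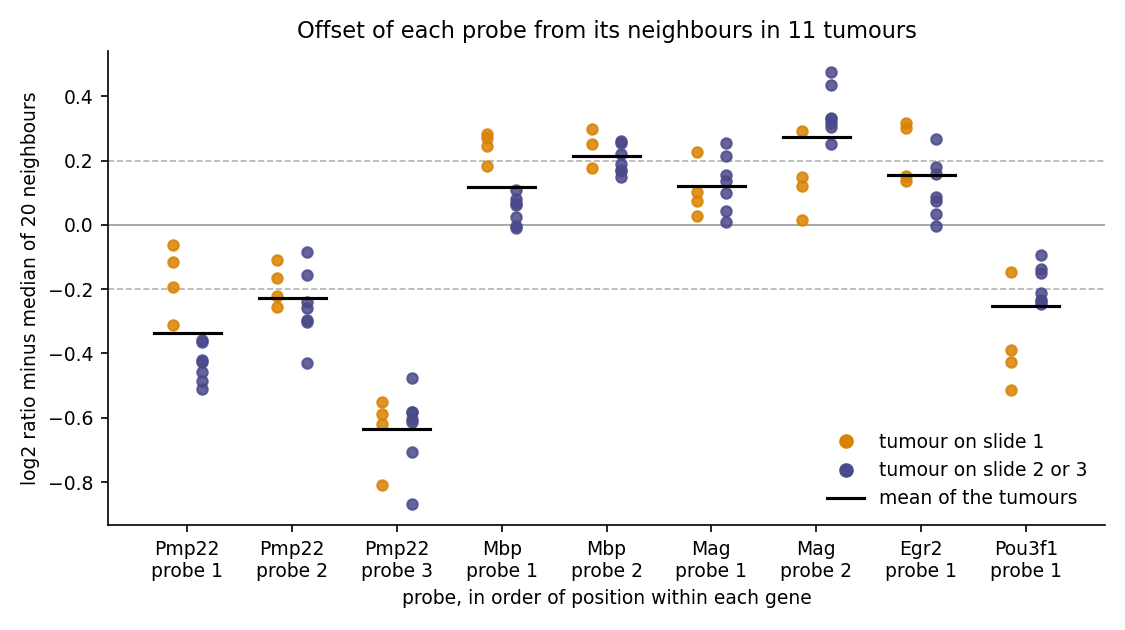
The vertical axis is the log2 ratio minus the median of the 20 neighbours, and each of the 9 probes has a column of tumours. The 4 tumours of slide 1 are on the left of each column and the 7 of slides 2 and 3 on the right. The black line is the mean, and dashed lines mark 0.2 and -0.2. The slides do not overlap at Pmp22 probe 1 and Mbp probe 1.

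Slide 1 (A18, 231 Trig, B86 and A202) was read on another scanner than slides 2 and 3. This split was looked at after the values were seen and was not tested. Pmp22 probe 1 minus neighbours was -0.17 ± 0.11 on slide 1 (SD, n = 4) and -0.43 ± 0.06 on the others (SD, n = 7), without overlap. Mbp probe 1 was 0.24 ± 0.04 on slide 1 and 0.05 ± 0.04 on the others, also without overlap. The Mbp gene did not overlap either. Over the whole array, 16.2% of probes and 15.3% of genes did not overlap between slide 1 and the rest. Pmp22 probe 3 showed no such gap, at -0.64 ± 0.11 and -0.63 ± 0.12.

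**Figure D4:**
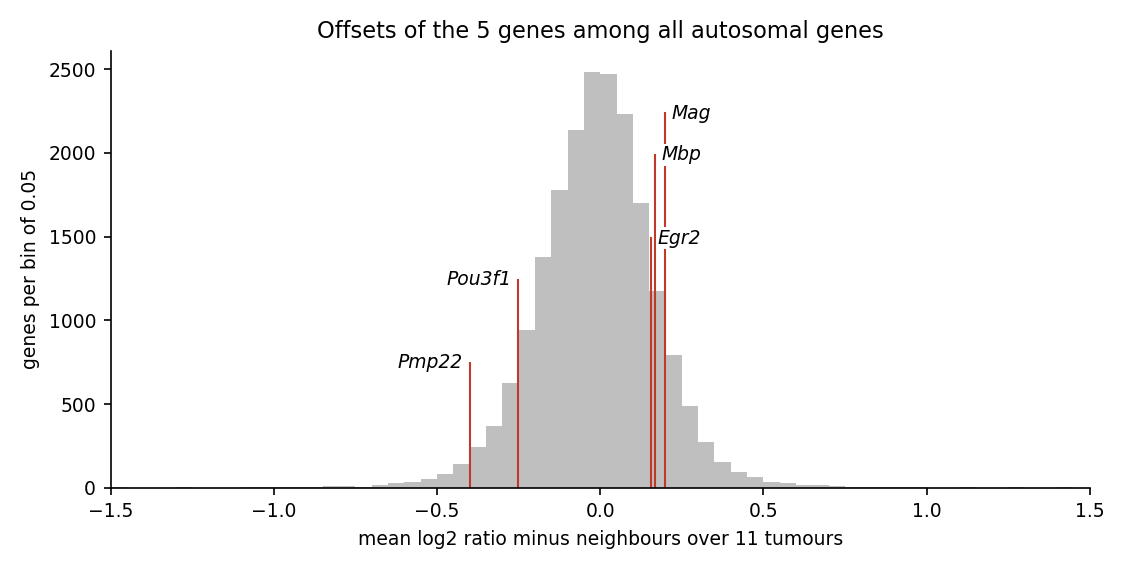
Bars count the autosomal genes by their mean log2 ratio minus neighbours over 11 tumours, in bins of 0.05. Genes beyond the axis are not drawn. Lines mark Pmp22 at -0.40, Pou3f1 at -0.25, Egr2 at 0.15, Mbp at 0.17 and Mag at 0.198.

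Outside chromosome 11 the stretches around these genes were mostly near 0. Of 44 pairs of a gene and a tumour, 3 had a neighbour median of at least 0.2, which were Mag in A18 (0.34) and A292 (0.24) and Egr2 in A382 (0.34). In 2 pairs it was at most -0.2, which were Mbp in A390 (-0.26) and Pou3f1 in A202 (-0.31). Over all such pairs the shares were 12.9% and 11.3%.

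No member passed the comparison of mixed with C57BL/6J tumours by limma, and 0 of 5 had an unadjusted p under 0.05 on either measure. Of all genes, 0.015% passed on the ratio and 0.0952% on the ratio minus neighbours. The largest difference on the ratio was that of Mag, 0.28 ± 0.10 in mixed tumours (SD, n = 7) and 0.15 ± 0.05 in C57BL/6J tumours (SD, n = 4), a difference of 0.14 with a 95% confidence interval of -0.03 to 0.30. Its adjusted p was 0.511. Within slides 1, 2 and 3 this difference was 0.21, 0.12 and 0.10. For Pmp22 the difference was 0.07 (-0.14 to 0.27), with 0.04, 0.20 and -0.03 within the slides. For Mbp, Egr2 and Pou3f1 it was 0.03, 0.07 and 0.03, with intervals that all span 0.

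Across the 11 tumours all members but Pou3f1 varied closely with their neighbours, as a description over points that share a reference and a scale. The gene most like each of the 5 members lay on its own chromosome. The ratio of Pmp22 had a Pearson correlation of 0.88 with its neighbour median, and those of Mbp, Mag and Egr2 had 0.84, 0.78 and 0.78. Pou3f1 had 0.31. Among genes with at least 2 probes, all 20 genes most like Pmp22 lay on chromosome 11, led by Bptf (r = 0.99). The most like gene of another chromosome was M30250 on chromosome 5 (r = 0.89). For Mag and Egr2 all 20 also lay on their own chromosome, led by Mtg1 (r = 0.97) and Nap1l1 (r = 0.95), and the best elsewhere were Tsc22d4 (r = 0.80) and Plcb3 (r = 0.78). For Mbp 16 of 20 did, led by Ercc3 (r = 0.94), with AK053981 (r = 0.92) elsewhere. For Pou3f1 7 of 20 did, led by Ctps (r = 0.924), with AK030117 (r = 0.918) elsewhere. Of the compared genes, 7.37% lay on the chromosome of Pmp22, 3.0% on that of Mbp and 6.76% on that of Mag. For Egr2 and Pou3f1 these shares were 4.99% and 6.34%.

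Other myelin sheath and node genes were read from a list of 24, of which 19 were tested. By limma 5 passed as higher, 2 as lower and 12 did not pass, where 18% of all genes passed as higher and 15.5% as lower. The median ratio was 0.03. Against neighbours 4 passed as higher and 3 as lower, where 9.96% and 12.9% of all genes did.

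On chromosome 11, Itgb4, the integrin β4 of the Schwann cell basal lamina contact, and Gal3st1, which makes sulfatide, passed at 0.98 ± 0.47 and 0.60 ± 0.25. Gjc3, a gap junction gene, was higher at 0.33 ± 0.24. It had 1 probe, which averaged 0.56 on slide 1 and 0.19, under the size minimum, on slides 2 and 3. Ugt8a, which makes the myelin lipid galactosylceramide, was higher at 0.31 ± 0.15, in 11 of 11 tumours, with means of its 3 probes from 0.03 to 0.47. Gldn, which encodes the node protein gliomedin, and Cadm4, which encodes an axon-glia adhesion protein, were lower at -0.51 ± 0.10 and -0.36 ± 0.20 (SD, n = 11 each). Gldn was below 0 in 11 of 11 tumours and Cadm4 in 10 of 11. Cadm4 had 1 probe, which averaged -0.18, short of the size minimum, on slide 1 and -0.47 on slides 2 and 3. These slide differences were not tested. Against their neighbours 4 of these 6 kept their call by limma, Itgb4 at 0.38 and Gjc3 at 0.37 as higher and Gldn at -0.47 and Cadm4 at -0.35 as lower. Ugt8a at 0.11 and Gal3st1 at 0.02 (adjusted p = 0.73) did not pass.

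Among regulators of Schwann cell myelination, 32 of 34 were tested, of which 5 passed as higher, 9 as lower and 18 did not pass, beside the same 18% and 15.5% of all genes. The median ratio was -0.05. The genes named are the 6 of largest size, and 4 of the 5 that passed as higher lay on chromosome 11. These were Ppp3r1, a calcineurin subunit, at 0.79 ± 0.22, Rptor, of the mTORC1 complex, at 0.55 ± 0.31, Erbb2, a neuregulin co-receptor, at 0.50 ± 0.23 and Srebf1, a regulator of lipid synthesis, at 0.49 ± 0.32. Against their neighbours none of these 4 passed as higher, and Srebf1 passed as lower, at -0.23. Tead1, a partner of YAP and TAZ, had the lowest ratio at -1.01 ± 0.53, below 0 in 11 of 11 tumours, and -1.01 against its neighbours. Its ratio was -1.83 in A394 and -0.39 in B91 at the extremes, with -0.68 as the lowest value of a C57BL/6J tumour. The 2 Tead1 probes averaged -1.31 and -0.71. Egr1, an early response factor related to Egr2, was lower at -0.36 ± 0.22, in 10 of 11 tumours (SD, n = 11 each), and -0.21 against its neighbours. Ppp3r1 and Egr1 rest on 1 probe each, and the probe means of Rptor ran from 0.18 to 0.76.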

How the data were processed

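DNA of 12 two-colour Agilent mouse arrays was read. Per the file headers, the authors deposited a log10 ratio of tumour to reference for each spot, after background subtraction, spatial and multiplicative detrending and linear dye normalisation. The intensity of each channel was deposited by the authors too. Scanning with Agilent Feature Extraction 9.5 on build mm9 is given in the submitters' processing notes. Each deposited log10 value was rescaled to log2. Control spots were left out, non-uniform and population outlier spots set missing, spots averaged per probe, and arrays centred on the autosomal median. Median net signals per array were 538 to 1237 for tumour and 612 to 809 for reference DNA, and the number of arrays limits precision. The tests used limma 3.58.1 (R 4.3.3), tested on simulated data, with Python 3.11.15, numpy 2.4.6 and pandas 2.3.3 for other steps. RefSeq accessions gave current gene symbols for 28951 of the 29337 probes that carried an accession. The members and lists were chosen with earlier results of these data known. The named genes were all members, their nearest probes with the name of another gene, the most alike gene on the own and on another chromosome, and the passing genes of both lists, or the 6 of largest size where more passed. One list gene that the rule also names is not reported here. Alternatives were other centring, background correction, filters, neighbour numbers, size minimums, slide terms and tumours left out. X genes were not tested.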

Additional observations from a re-analysis of the deposited data

Results flagged for a closer look

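In the C57BL/6J tumours, B86 stood apart from the other 3 in Pmp22 probe 1 minus neighbours, at -0.0617 against -0.42 for the nearest other tumour. It also stood apart in Pou3f1 minus neighbours, at -0.4251 against -0.25 for the nearest other. B86 is the C57BL/6J tumour on slide 1, and the part of the slide in both values was not tested. Of 48 groups examined for such a value 2 had one, and chance flags about 1 in 20 groups.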

How the results depend on the processing

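Pmp22 kept its direction and its call in 26 of 26 alternatives for the ratio (0.39 to 0.52) and in 30 of 30 for the ratio minus neighbours (-0.46 to -0.33). Pou3f1 minus neighbours kept its call in 27 of 30 (-0.35 to -0.17). Members past the threshold against neighbours numbered 5 with no minimum size or one of 0.1, 1 with 0.3, 1 with 10 neighbours and 4 with normexp correction, against 2. Against the chromosome median they numbered 0 with a minimum of 0.3 and 2 without slide 1, and leaving out each tumour gave 2 to 4, the lowest without A202, against 4. Over all genes, with no minimum, 0.1 and 0.3, the counts lower than the reference were 5462, 5414 and 1282, and 2295 were higher with 0.3. Against neighbours they were 6152, 4741 and 711 higher and 6859, 5571 and 1013 lower, and against the chromosome median 6004, 4646 and 702 higher and 7075, 5723 and 1052 lower. For mixed minus C57BL/6J ratios, leaving out each tumour gave 2 to 8 genes higher and 0 to 3 lower. Without slide 1 it gave 0 higher, with normexp 7 higher and 9 lower, with mode centring 2 lower, and 1 lower both with the passage 8 array alone and without dim probes. Minus neighbours, leaving out each tumour gave 9 to 25 higher and 0 to 15 lower. Without slide 1 there were 31 higher and 27 lower, with normexp 24 and 23, with slide as a block 14 lower, with the passage 9 array alone 11 lower, and with the mean of neighbours 20 higher. The Mbp ratio changed sign without slide 1, at -0.0072. Strain differences near 0 that had not passed also changed sign. For the ratio, Mbp lay between -0.0219 and 0.068 when tumours were left out, with -0.0144 without slide 1 and -0.027 with mode centring, and Pou3f1 lay between -0.0111 and 0.0611, with -0.0214 under mode centring. Minus neighbours, Mbp lay between -0.0257 and 0.0452, with -0.0159 with slide as a block, -3.3e-05 without slide 1, -0.0193 with 10 neighbours, -0.00042 with same-gene probes kept and -0.005 with outlier spots kept. Pmp22 lay between -0.0514 and 0.0237, with 0.0451 for the median of probes and 0.0147 with normexp. Egr2 lay between -0.0093 and 0.098 and Pou3f1 between -0.0065 and 0.0878, with -0.0003 for 40 neighbours. In the reference channel Pmp22 read 0.0776 from background-subtracted signal, and without GC adjustment the neighbours read -0.8428 and chromosome 11 -0.4811. The cause of these changes was not tested. No paired analysis was possible because the replicate numbers only follow the order of the samples and pair nothing across backgrounds. With 4 C57BL/6J tumours, the intervals of the strain differences are wide, and a gene with 1 probe has no second probe to set beside it.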
